A study of Mus musculus with 14 samples.

Results

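The POU3 and POU4 genes were taken as the 6 genes Pou3f1, Pou3f2, Pou3f3, Pou4f1, Pou4f2 and Pou4f3, each with every H3K27me3 peak that lay within 10 kb of its RefSeq gene body (mm10). This gave 40 of the 74458 peaks of the count table, with 4 peaks at Pou3f1, 8 at Pou3f2, 7 at Pou3f3, 11 at Pou4f1, 4 at Pou4f2 and 6 at Pou4f3. The peaks of each gene were taken by position alone. H3K27me3 was profiled by Cut&Tag, in which an antibody tethers the transposase Tn5 to chromatin so that adapters are inserted beside the mark. The mouse embryonic stem cells (mESCs) were of the G4 line, an F1 hybrid of 129/Sv and C57BL/6, and were grown with LIF on CD1 feeder cells. All cells lacked 1 of the anchors of long-range Polycomb loops, with both alleles deleted, and none of the groups was unedited. The libraries comprised 3 of the Hoxa deletion, 2 of the Wnt6 deletion and 2 of the Hmx1 deletion.

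Since the table has no column for unedited cells, the libraries of 1 deletion were set against those of both other deletions together. The study asked whether loss of an anchor alters H3K27me3 elsewhere. The labels do not say whether libraries came from separate cultures, so that p-values measure the spread between these libraries, which may be technical. In the pooled comparisons this spread also includes any difference between both deletions that were set together. The methods describe single clones picked after editing, and where a deletion is represented by 1 clone, deletion and clone cannot be told apart. Library totals over all peaks ranged from 6016500 to 36563541 counts. The stretch missing from each library matched its label, with between 0.0944% and 0.553% of the level of the other deletions left in it. The 7 IgG libraries were not analysed here.

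POU factors are transcription factors that bind DNA through a POU-specific domain joined to a homeodomain. Class III and class IV members act mainly in the nervous system and sense organs, and Polycomb complexes hold many such regulators of later lineages under H3K27me3 in mESCs. Pou3f1 (Oct6, or SCIP) acts in Schwann cells, and Pou3f2 (Brn2) and Pou3f3 (Brn1) act in neurogenesis of the cortex. Pou4f1 (Brn3a) acts in sensory neurons, Pou4f2 (Brn3b) in retinal ganglion cells and Pou4f3 (Brn3c) in hair cells of the inner ear. RNA was not measured in these libraries.

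Promoter sequences from RefSeq matched 4 of the 6 genes, and they are shown because each of them lay inside an H3K27me3 peak. Each runs 5′ to 3′ on the strand of the gene, from 250 bases before to 50 bases after its start (GRCm38.p6), and capitals mark each CG dinucleotide, the site of DNA methylation that is dense in CpG islands. The windows are chr4:22488317-22488616 on the minus strand for Pou3f2, chr1:42695518-42695817 on the plus strand for Pou3f3, chr14:104467950-104468249 on the minus strand for Pou4f1 and chr8:78436598-78436897 on the minus strand for Pou4f2. The start used for Pou4f1 lies inside its gene body as given below, and those of the other genes lie at an edge of theirs.
Pou3f2: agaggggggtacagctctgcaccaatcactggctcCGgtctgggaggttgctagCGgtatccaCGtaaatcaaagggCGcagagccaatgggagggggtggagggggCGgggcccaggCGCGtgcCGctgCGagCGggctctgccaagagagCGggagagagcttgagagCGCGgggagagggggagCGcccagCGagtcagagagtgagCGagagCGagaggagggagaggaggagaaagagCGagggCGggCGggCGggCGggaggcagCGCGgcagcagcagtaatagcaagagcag
Pou3f3: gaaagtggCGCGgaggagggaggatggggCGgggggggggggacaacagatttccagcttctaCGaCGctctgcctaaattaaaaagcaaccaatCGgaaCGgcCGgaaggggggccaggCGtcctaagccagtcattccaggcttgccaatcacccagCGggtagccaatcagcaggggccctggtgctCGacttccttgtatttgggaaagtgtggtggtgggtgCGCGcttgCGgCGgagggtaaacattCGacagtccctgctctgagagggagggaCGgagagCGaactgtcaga
Pou4f1: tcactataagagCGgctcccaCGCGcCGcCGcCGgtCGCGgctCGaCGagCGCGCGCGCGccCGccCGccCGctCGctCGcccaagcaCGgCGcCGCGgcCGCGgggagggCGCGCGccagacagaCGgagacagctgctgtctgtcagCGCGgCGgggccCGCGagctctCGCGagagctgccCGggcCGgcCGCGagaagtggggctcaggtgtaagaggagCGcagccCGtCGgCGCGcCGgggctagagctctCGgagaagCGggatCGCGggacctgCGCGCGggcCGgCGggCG
Pou4f2: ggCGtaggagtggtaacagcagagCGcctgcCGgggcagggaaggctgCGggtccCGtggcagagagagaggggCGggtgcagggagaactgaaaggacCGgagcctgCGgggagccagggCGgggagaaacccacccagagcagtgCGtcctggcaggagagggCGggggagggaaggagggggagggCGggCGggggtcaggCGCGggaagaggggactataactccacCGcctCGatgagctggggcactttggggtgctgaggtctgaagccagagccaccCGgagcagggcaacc

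The Pou4f1 promoter held 57 CG dinucleotides, a number that only 0.152% of the 32851 promoters of this length reached. The Pou3f2 promoter held 24, which 19.98% of promoters reached. The Pou3f3 and Pou4f2 promoters held 18 each, which 29.7% reached, and the median over all promoters was 7. The GC content was 67.7% at Pou3f2, 60.3% at Pou3f3, 78.3% at Pou4f1 and 69.7% at Pou4f2, against a median of 52.7%. The octamer ATGCAAAT, a sequence that POU factors can bind, was searched on both strands and was not among the letters of these 4 windows, while 1.74% of all promoters held it.

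The POU3 and POU4 peaks were stronger and wider than most. Their median level was 47.4 CPM (CPM being counts set to a common library total with TMM factors, here as the mean of the 7 libraries), against 3.80 CPM over all peaks. Every member peak lay above the median peak, 26 of the 40 were among the top 10% by CPM, and 3 were among the top 1%. Their median width was 1054 bp (297 to 4146 bp), against 476 bp over all peaks. Per kb of peak their median level was 51.2 CPM, against 7.74 CPM per kb over all peaks, and 27 of the 40 were in the top 10% on this scale.

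**Figure D1:**
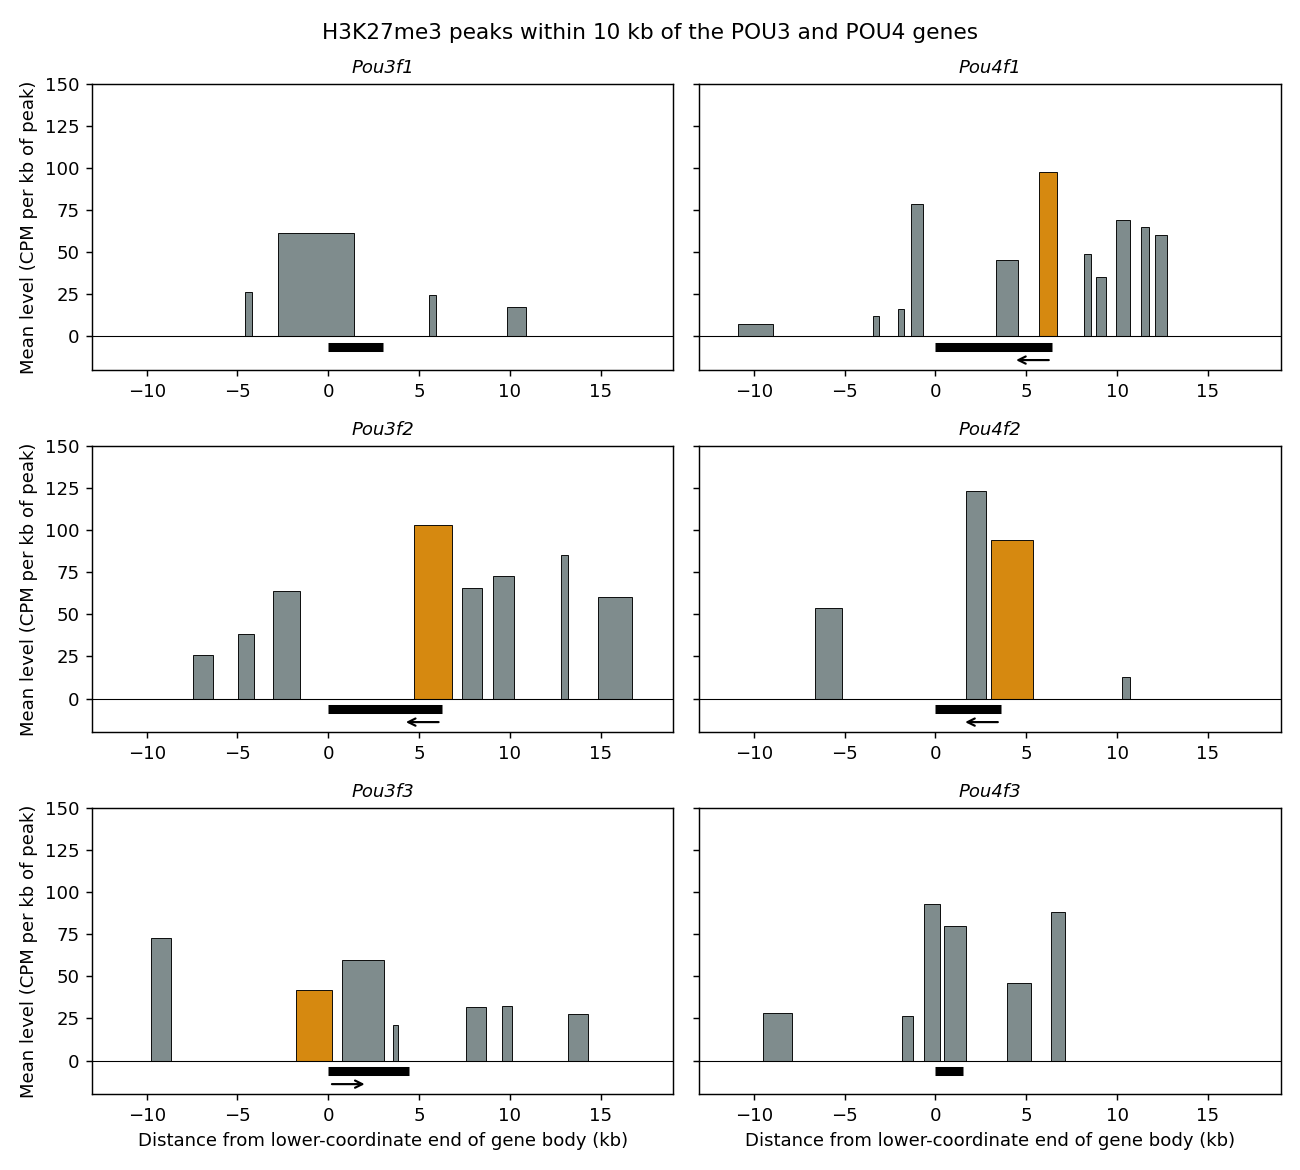
The panels plot the 40 peaks of the 6 genes by distance in kb from the lower-coordinate end of the gene body, with height as the mean of 7 libraries in CPM per kb of peak and width to scale. Black bars are gene bodies, arrows give the direction of transcription where it is known, and orange marks the peak that covers the promoter sequence. Signal at Pou3f1 lay mainly in 1 peak of 4146 bp, whereas Pou4f1 had 11 separate peaks.

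Pou3f1 lies at 124657646 to 124660655 on chromosome 4 (gene ID 18991). Its strongest peak, at 124654898 to 124659044, overlapped the gene body and the neighbouring end of the lncRNA gene Gm2164 on the lower-coordinate side. That peak was the widest of the 40 and held 87.0% of the summed level of the gene, at 253 CPM (61.1 CPM per kb). Its level was 242, 232 and 235 CPM in the Hoxa deletion, 290 and 244 CPM in the Wnt6 deletion, and 263 and 269 CPM in the Hmx1 deletion. The Hoxa libraries were lowest, below both other groups, although the nearest Wnt6 library was close to them. The other 3 peaks had 9.74, 9.62 and 18.4 CPM.

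Pou3f2 lies at 22482095 to 22488366 on chromosome 4 (gene ID 18992), 102 Mb from Pou3f1. Its strongest peak, at 22486805 to 22488894, covered the whole promoter printed above, with 215 CPM (103 CPM per kb). The libraries gave 225, 198 and 219 CPM in the Hoxa deletion, 206 and 192 CPM in the Wnt6 deletion, and 237 and 229 CPM in the Hmx1 deletion. The Wnt6 libraries overlapped with the Hoxa libraries, and both Hmx1 libraries were the highest. Signal went on upstream, where 4 peaks had 34.2 to 113 CPM, among them 1 of 82.7 CPM that overlapped the lncRNA gene Gm30731 (Pnky). Downstream, the peaks became weaker with distance, from 95.2 CPM at 1.57 kb to 34.3 CPM at 4.07 kb and 28.4 CPM at 6.36 kb.

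Pou3f3 lies at 42695768 to 42700210 on chromosome 1 (gene ID 18993), among the lncRNA genes Pantr1, Pantr2, Gm46091 and 2900092D14Rik. Here the promoter was not the strongest site. The peak over it, at 42693998 to 42695992, had 83.1 CPM, whereas the next peak, at 42696501 to 42698853 within the gene body, had 140 CPM. The gene body peak gave 145, 125 and 151 CPM in the Hoxa deletion, 131 and 131 CPM in the Wnt6 deletion, and 153 and 146 CPM in the Hmx1 deletion. The promoter peak gave 86.3, 81.3 and 84.5 CPM in the Hoxa deletion, 86.1 and 76.4 CPM in the Wnt6 deletion, and 83.8 and 83.4 CPM in the Hmx1 deletion. The ranges of the 3 groups overlapped at the promoter peak. A peak 8.64 kb upstream, which overlapped Pantr1 and Gm46091, had 79.9 CPM. Every peak at Pou3f3 overlapped at least 1 of these lncRNA genes, so that its signal cannot be assigned to Pou3f3 alone.

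Pou4f1 lies at 104461675 to 104468118 on chromosome 14 (gene ID 18996). Its strongest peak, at 104467361 to 104468375, covered the promoter with 98.8 CPM (97.5 CPM per kb). The libraries gave 97.2, 89.6 and 97.8 CPM in the Hoxa deletion, 106 and 87.4 CPM in the Wnt6 deletion, and 113 and 101 CPM in the Hmx1 deletion. The Wnt6 libraries overlapped with both other groups, and the Hmx1 libraries lay above the Hoxa libraries. The upstream side had 5 peaks of 16.6 to 53.7 CPM within 5.66 kb. On the downstream side the nearest peak, at 0.706 kb, had 50.4 CPM, and the next had 5.76 CPM.

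Pou4f2 lies at 78433009 to 78436647 on chromosome 8 (gene ID 18997), and it had the highest level per kb of peak of the 6 genes, at 81.7 CPM per kb. The strongest peak, at 78436054 to 78438393, covered the promoter with 219 CPM (93.8 CPM per kb). It gave 202, 176 and 179 CPM in the Hoxa deletion, 245 and 212 CPM in the Wnt6 deletion, and 262 and 259 CPM in the Hmx1 deletion. Each Hoxa library was below each Wnt6 library, and each Wnt6 library was below both Hmx1 libraries. The adjacent peak in the gene body, at 78434720 to 78435783, was the densest of the 40, with 123 CPM per kb (131 CPM).

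Pou4f3 lies at 42394597 to 42396093 on chromosome 18 (gene ID 18998), and a pair of its peaks overlapped the gene body. The stronger, at 42395079 to 42396259, had 94.3 CPM, and the other, at 42393969 to 42394864, had 83.0 CPM. The stronger gave 94.98, 84.5 and 99.4 CPM in the Hoxa deletion, 95.4 and 84.6 CPM in the Wnt6 deletion, and 102 and 99.7 CPM in the Hmx1 deletion. The Wnt6 libraries lay within the range of the Hoxa libraries, and both Hmx1 libraries were highest. On the higher-coordinate side, peaks of 58.5 and 67.1 CPM overlapped the lncRNA gene Gm31438.

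To compare the genes, the summed level was divided by the length of the gene body plus 10 kb on each side. On this scale Pou3f2 was highest (25.7 CPM per kb of window), followed by Pou4f2 (18.5), Pou4f3 (16.9), Pou3f3 (16.1), Pou4f1 (14.6) and Pou3f1 (12.7). The lowest library of Pou3f2, at 23.5 CPM per kb of window, lay above the highest of Pou4f2, at 22.5. All other neighbours in this order had overlapping ranges over the 7 libraries. Within a library, Pou4f3 was above Pou3f3, Pou3f3 above Pou4f1 and Pou4f1 above Pou3f1 in 7 of 7 libraries, whereas Pou4f2 was above Pou4f3 in 4 of 7. Those 4 were the Wnt6 and Hmx1 libraries, and Pou4f2 was below Pou4f3 in each Hoxa library. Among 21887 protein-coding genes all 6 were in the top 10%, from the top 0.0822% at Pou3f2 to the top 1.46% at Pou3f1. The order depended on the window. Per kb of peak Pou4f2 (81.7 CPM per kb) lay above Pou3f2 (66.8 CPM per kb). Within 2 kb Pou4f2 was likewise highest per kb of window, at 45.8 CPM, Pou3f2 followed at 37.2, Pou3f1 was close to it at 36.2, and Pou4f1 was lowest at 21.8. Within 50 kb Pou3f2 was highest (6.51 CPM per kb of window), Pou3f3 followed (6.06) and Pou3f1 was lowest (3.56).

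Of the nearest peaks outside the border at 10 kb, that of Pou3f3 was the strongest. At Pou3f3 the nearest peak outside, 10.6 kb upstream, had 94.3 CPM. Inside the border, the outermost peak upstream, 8.64 kb away, had 79.9 CPM, and that downstream, 8.75 kb away, had 31.0 CPM. At Pou4f2 the nearest peak outside, 12.3 kb downstream, had 28.9 CPM. Inside, the peak 5.13 kb downstream had 81.2 CPM, and that 6.64 kb upstream had 5.48 CPM. At the other 4 genes the nearest peak outside had 3.04 to 10.8 CPM. Peaks further out added signal at several genes. Within 50 kb the summed level was 633 CPM at Pou3f3, against 393 CPM within 10 kb. It was 456 against 364 CPM at Pou4f3, 367 against 291 at Pou3f1 and 481 against 437 at Pou4f2. The change was small at Pou3f2 (692 against 675 CPM) and Pou4f1 (393 against 387 CPM).

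The other 9 POU family genes differed from these in level. Their median was 0.528 CPM per kb of window, and Pou1f1, a pituitary factor, had no peak within 10 kb. The highest were Pou2f2, a B cell factor, at 3.65, Pou6f1 at 3.05 and Pou3f4, the remaining class III gene, which acts in the inner ear, at 2.79 CPM per kb of window. Pou5f1 (Oct4), which maintains pluripotency and is active in mESCs, was at 0.528. On this scale no other POU gene reached the lowest of the 6, Pou3f1. As a sum without regard to length, the 22 peaks of Pou2f2, along a gene body of 93448 bp, gave 415 CPM, which was above the sums of Pou3f1, Pou3f3, Pou4f1 and Pou4f3. Medians over other regulators of neural fate were nearer, with 12.8 CPM per kb of window over 16 neurogenic bHLH genes and 12.4 over 12 LIM homeobox genes. For comparison, 10 markers of pluripotent stem cells had a median of 0.312 and 10 markers of feeder fibroblasts a median of 2.59 CPM per kb of window.

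**Figure D2:**
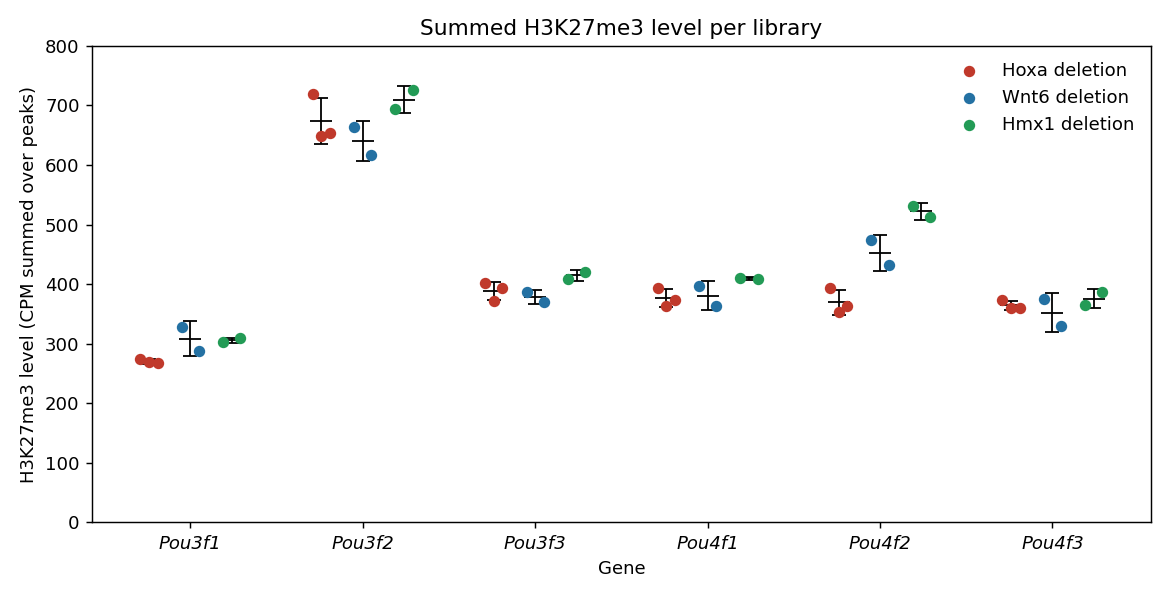
Points are the summed H3K27me3 level of each gene in CPM in the 3 Hoxa, 2 Wnt6 and 2 Hmx1 deletion libraries, and bars are the mean and SD of each group. The Pou4f2 values of the Hoxa deletion, 353 to 393 CPM, lie below the 431 to 532 CPM of the others, and the sums are not divided by length.

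In the Hoxa deletion, Pou4f2 and Pou3f1 had lower summed H3K27me3 CPM than in the other deletions. At Pou4f2 this went with lower counts along chromosome 8, as given below. The summed level of Pou4f2 was 393, 353 and 363 CPM in the Hoxa deletion (370 ± 20.9, SD, n = 3), 474 and 431 CPM in the Wnt6 deletion (453 ± 30.2, SD, n = 2), and 532 and 512 CPM in the Hmx1 deletion (522 ± 13.5, SD, n = 2). The groups did not overlap. The summed level of Pou3f1 was 274, 269 and 268 CPM in the Hoxa deletion (270 ± 3.74, SD, n = 3), 329 and 287 CPM in the Wnt6 deletion (308 ± 29.3, SD, n = 2), and 303 and 309 CPM in the Hmx1 deletion (306 ± 4.13, SD, n = 2). Here the Hoxa libraries lay below all others, and the Wnt6 and Hmx1 libraries overlapped.

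Over the summed levels of all genes, Pou4f2 was lower by a log2 fold change of -0.45 (SE 0.0593, edgeR adjusted p = 3.53e-07). Pou3f1 was lower by a log2 fold change of -0.23 (SE 0.0565, edgeR adjusted p = 0.00261). These 2 of 6 genes passed an adjusted p under 0.05 in the lower direction, as did 8.60% of the 17003 genes tested. That share includes genes of chromosome 8 and was not split by chromosome, while Pou3f1 is on chromosome 4. Among single peaks, 2276 of the 3129 that were lower at the adjusted p were on chromosome 8. For the remaining 4 genes the log2 fold change was -0.050 at Pou3f2, -0.076 at Pou3f3, -0.12 at Pou4f1 and -0.045 at Pou4f3, with edgeR adjusted p between 0.145 and 0.657. With a required log2 fold change over 1, which the study also used, 0 of 6 genes were called, against 0.488% of all genes. The gene tests took TMM factors from the summed counts, whereas the CPM values used those of the peaks. An alternative chosen after seeing the data used the factors of the peaks. It gave a log2 fold change of -0.40 at Pou4f2 (edgeR adjusted p = 9.03e-06) and -0.18 at Pou3f1 (edgeR adjusted p = 0.0394). The remaining 4 genes then ran from -0.069 at Pou4f1 to 0.0020 at Pou4f3. With a replicate block Pou3f1 missed the threshold, at -0.21 (edgeR adjusted p = 0.0534).

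Among single peaks, 0 of 40 were called in the Hoxa deletion at an adjusted p under 0.05 and an absolute log2 fold change over 1, against 1.55% of the 74441 peaks tested. DESeq2 also called 0, and 7 had an unadjusted edgeR p under 0.05, where 20.8% of all peaks did. At the adjusted p alone, 6 of 40 peaks were lower, against a background of 4.20%, and no member peak was higher, against 4.32%. They were all 4 peaks of Pou4f2, 1 at Pou3f1 and 1 at Pou3f3. Pou4f2 is on chromosome 8, and away from that chromosome 2 of 36 member peaks were lower, against 1.24% of 68862 peaks. DESeq2 passed 4 of the 6 at the adjusted p, leaving out both outer peaks of Pou4f2, and edgeR with RLE factors also passed 4. The 95% intervals of 38 of the 40 log2 fold changes lay within -1 and 1.

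The Pou3f1 peak was the one at 124663205 to 124663595 on chromosome 4, 2.55 kb beyond the higher-coordinate end of the gene. It gave 6.00, 8.25 and 6.38 CPM in the Hoxa deletion, 11.8 and 12.1 CPM in the Wnt6 deletion, and 10.6 and 12.2 CPM in the Hmx1 deletion. All Hoxa libraries lay below all others, and the other groups overlapped. Its log2 fold change of -0.74 (SE 0.151, edgeR adjusted p = 0.000516) was the largest in size among the 40 peaks in this comparison. The strong peak over the Pou3f1 gene body had -0.17 (edgeR adjusted p = 0.122).

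At Pou4f2 the gene body peak had 108, 99.4 and 113 CPM in the Hoxa deletion, 137 and 135 CPM in the Wnt6 deletion, and 170 and 152 CPM in the Hmx1 deletion. The groups did not overlap. Its log2 fold change was -0.47 (SE 0.0843, edgeR adjusted p = 8.34e-05), and that of the promoter peak was -0.40 (SE 0.0765, edgeR adjusted p = 0.000257). The outer peaks, 1 downstream at 78426366 to 78427878 and 1 upstream at 78443285 to 78443716, had -0.27 and -0.62, with edgeR adjusted p of 0.0489 and 0.0482. The upstream one is weak, with 39 to 225 counts a library.

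The Pou3f3 peak, at 42703323 to 42704429 and 3.11 kb downstream, gave 32.9, 30.0 and 29.3 CPM in the Hoxa deletion, 37.7 and 37.2 CPM in the Wnt6 deletion, and 36.8 and 40.1 CPM in the Hmx1 deletion. The Hoxa libraries lay below the rest, with a log2 fold change of -0.31 (SE 0.103, edgeR adjusted p = 0.0480). This call was lost when any single library was left out, with edgeR adjusted p of 0.0505 to 0.184. The calls at both outer Pou4f2 peaks were lost without Hoxa replicate 1, 2 or 3 and without either Hmx1 library, that downstream also without Wnt6 replicate 1 and that upstream also without Wnt6 replicate 2. Those of the Pou3f1 peak and of the inner Pou4f2 peaks were kept without each of the 7 libraries in turn.

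**Figure D3:**
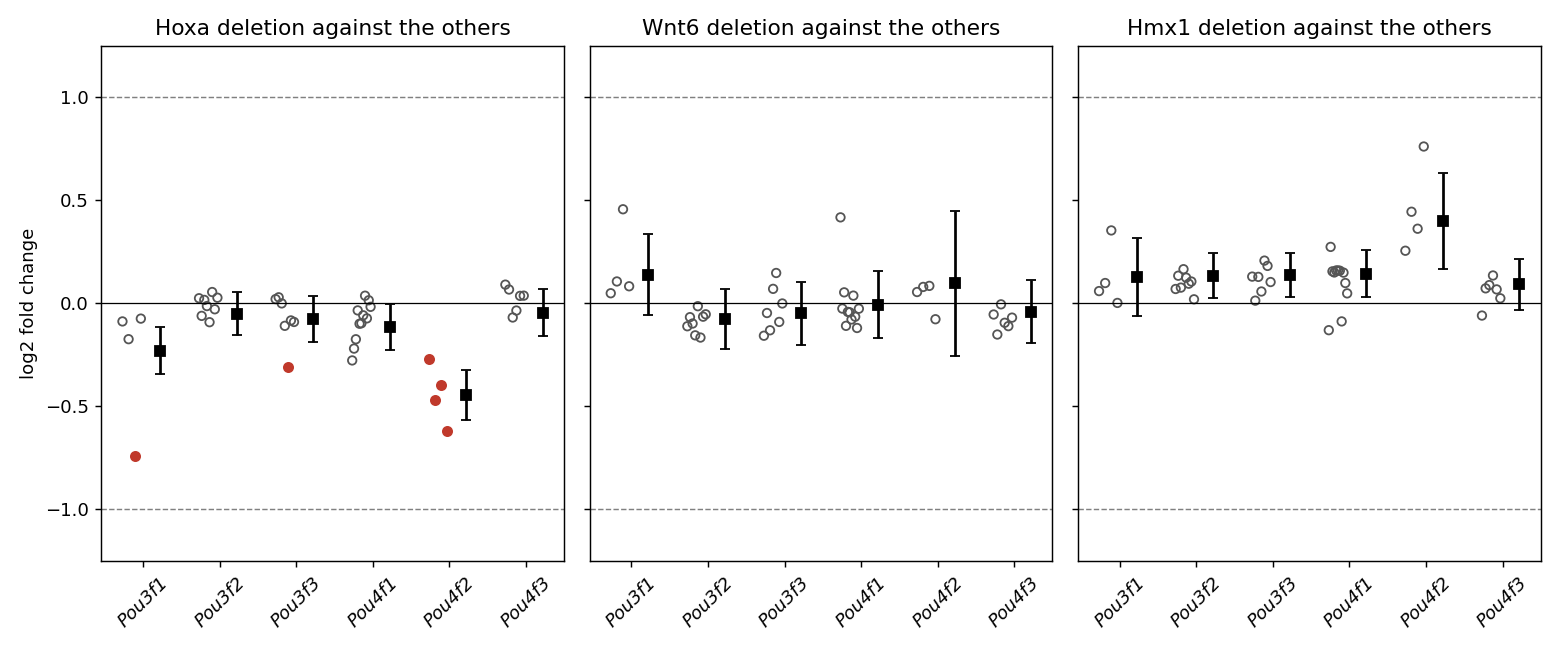
Each panel sets 1 deletion against the other deletions and plots the log2 fold change of the 40 peaks as circles, filled red at an edgeR adjusted p under 0.05, and of the summed level per gene as squares with 95% intervals. Dashed lines are the required fold change of 1 on the log2 scale. The 6 filled peaks are all in the Hoxa panel and below 0.

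The lower level of Pou4f2 in the Hoxa deletion was shared by its chromosome. Over 5579 tested peaks of chromosome 8 the median log2 fold change was -0.59, while those of the remaining 19 chromosomes ran from -0.013 to 0.078. Of the chromosome 8 peaks, 40.8% were lower at the adjusted p. Over 302 chromosome 8 peaks of at least 50 CPM the median was -0.54 (quartiles -0.61 and -0.46), and over 67 peaks within 1 Mb of Pou4f2 it was -0.47, with 59 of them below 0. Chromosome 8 held between 5.45% and 5.49% of all counts in the Hoxa libraries and between 7.81% and 7.95% in the others. With the median of each chromosome removed, Pou4f2 was no longer lower (log2 fold change 0.092, edgeR adjusted p = 0.355), and Pou3f1 remained lower at -0.26 (edgeR adjusted p = 0.00200). The cause of the shift of chromosome 8 was not tested.

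**Figure D4:**
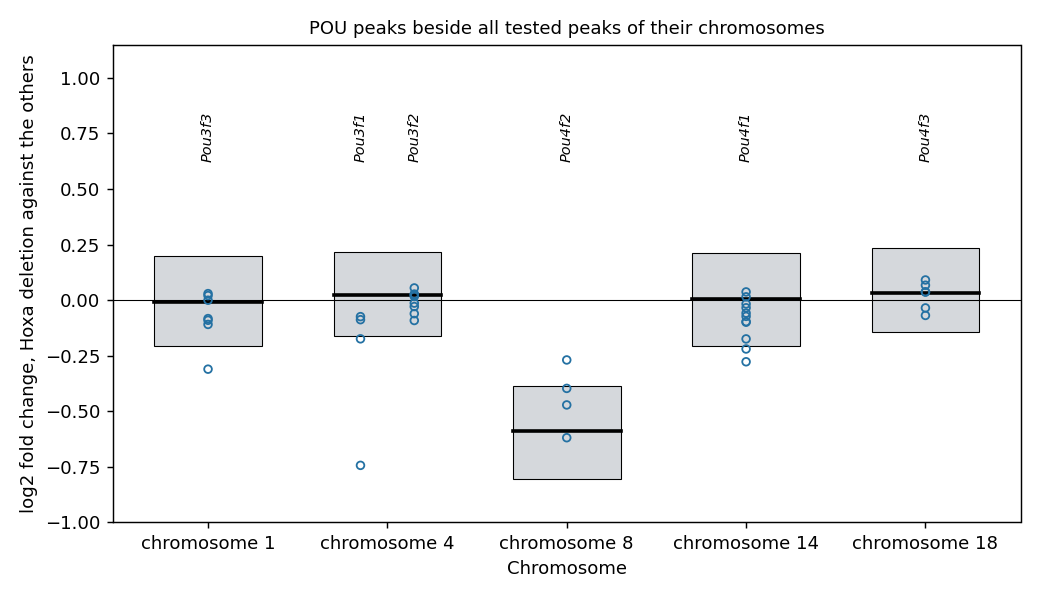
Circles are the log2 fold changes of the POU peaks in the Hoxa deletion against the other deletions, grouped by gene on its chromosome. Grey boxes span the quartiles of all tested peaks of that chromosome and black lines their median, which is -0.59 on chromosome 8, where the 4 Pou4f2 peaks lie between -0.62 and -0.27.

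In the Wnt6 deletion, 0 of 6 genes passed the adjusted p in edgeR, against 0.0353% of all genes, and 0 had an unadjusted p under 0.05 or passed in DESeq2. The Wnt6 stretch is on chromosome 1, where Pou3f3 lies 32.1 Mb away, and none of the other 5 genes is on a chromosome with a deleted stretch. Pou3f3 had a summed level of 387 and 370 CPM in the Wnt6 deletion (379 ± 11.7, SD, n = 2), 401, 372 and 394 CPM in the Hoxa deletion (389 ± 15.1, SD, n = 3), and 408 and 421 CPM in the Hmx1 deletion (415 ± 9.16, SD, n = 2). The Wnt6 and Hoxa libraries overlapped. The log2 fold change of Pou3f3 against the other deletions was -0.05 (95% interval -0.20 to 0.10, edgeR adjusted p = 0.949). Over the 6 genes the log2 fold change ran from -0.08 at Pou3f2 to 0.14 at Pou3f1, and the widest interval, that of Pou4f2, ran from -0.25 to 0.45.

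Among single peaks, 0 of 40 were called in the Wnt6 deletion, against 0.0497% of all peaks, and 0 passed the adjusted p alone, against 0.0564%. DESeq2 gave 0 by both rules. At an unadjusted edgeR p under 0.05, where 5.20% of all peaks lay, there was 1, the outermost downstream peak of Pou4f1 at 104450784 to 104452710, with a log2 fold change of 0.42 and an edgeR adjusted p of 0.920. That peak had 19.6 and 15.4 CPM in the Wnt6 deletion, 13.4, 13.8 and 11.1 CPM in the Hoxa deletion, and 9.46 and 16.2 CPM in the Hmx1 deletion. Both Wnt6 libraries lay above the Hoxa libraries, and the range of the Hmx1 libraries overlapped both. It also overlapped the lncRNA genes D130079A08Rik and Gm35362. The 95% intervals of all 40 log2 fold changes lay within -1 and 1.

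In the Hmx1 deletion, nearly all POU peaks had log2 fold changes slightly above 0, and whether any passed the test depended on the model. Of the 40 peaks, 37 had a log2 fold change above 0 and 3 below, with a median of 0.12. The median was -0.01 over all tested peaks and 0.06 over the 5122 peaks of at least 47.4 CPM. The share of all tested peaks above 0 was not taken. Over peaks of at least 50 CPM the median was 0.042 to 0.077 on chromosomes 1, 4, 14 and 18. Their lower quartiles were -0.044 to -0.00069, so that most strong peaks there were above 0 as well. Away from chromosome 8 the median of 36 member peaks was 0.10. Lists of other neural regulators leaned the same way, with 122 of 156 LIM homeobox peaks above 0 (median 0.08) and 48 of 67 neurogenic bHLH peaks (median 0.06). At the other POU genes 16 of 55 peaks were above 0 (median -0.12). In the Hoxa and Wnt6 comparisons 28 of 40 member peaks were below 0 in each, with medians of -0.07 and -0.05. Over all tested peaks the medians were -0.0054 and -0.0025, and over the 5122 strong peaks -0.0099 and -0.041. The 3 comparisons share libraries, so that these values are not independent of each other.

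In the Hmx1 deletion 0 of 40 peaks were called by edgeR, against 0.0282% of all peaks, and 0 passed the adjusted p alone, against 0.0309%. DESeq2 gave 0 by both rules, and 5 peaks had an unadjusted edgeR p under 0.05, against 8.95% of all peaks. These were the 4 peaks of Pou4f2 and the promoter peak of Pou3f2. With a term for each genotype, the gene body and promoter peaks of Pou4f2 passed (0.42 and 0.34, edgeR adjusted p = 0.000997 and 0.00834). Both also passed without Wnt6 replicate 1 (edgeR adjusted p = 0.0279 and 0.0163), and the gene body peak passed without Wnt6 replicate 2 (edgeR adjusted p = 0.0401). Summed per gene, Pou4f2 reached 0.40 on the log2 scale (95% interval 0.17 to 0.63, edgeR adjusted p = 0.127), and the other genes had 0.09 to 0.14. No gene passed the adjusted p in edgeR, against 0.112% of all genes, while 4 of 6 had an unadjusted p under 0.05, against 17.1%, and DESeq2 passed Pou4f2 alone (adjusted p = 0.0301). With a term for each genotype 4 of 6 genes passed, Pou4f2 at 0.38 (edgeR adjusted p = 2.78e-08) and Pou3f2, Pou3f3 and Pou4f1 at 0.14 each (edgeR adjusted p = 0.0349, 0.0388 and 0.0383). For chromosome 8 as a whole the median log2 fold change was 0.30 in this comparison and 0.33 in the Wnt6 comparison, and with chromosome medians removed Pou4f2 had 0.088 (edgeR adjusted p = 0.557). Both comparisons had the Hoxa libraries in the reference group, where chromosome 8 held 5.45% to 5.49% of all counts. In the Wnt6 and Hmx1 libraries alike it held 7.81% to 7.95%.

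Between single deletions, with a term for each genotype, the log2 fold change put the Hoxa deletion below the Wnt6 deletion at Pou4f2, at -0.34 (edgeR adjusted p = 7.18e-07) and at Pou3f1, at -0.23 (edgeR adjusted p = 0.00106). These 2 of 6 genes compare with 7.78% of all genes lower. Against the Hmx1 deletion it was lower at Pou4f2 (-0.55), Pou3f1 (-0.23), Pou4f1 (-0.17) and Pou3f3 (-0.14), with edgeR adjusted p between 2.49e-12 and 0.0330, so that 4 of 6 genes compare with 11.0% of all genes lower. The Wnt6 deletion was lower than the Hmx1 deletion at Pou4f2 alone (-0.21, edgeR adjusted p = 0.0377), where 0.588% of all genes were lower. For Pou4f3 the interval was -0.10 to 0.11 for Hoxa against Wnt6, -0.20 to 0.01 for Hoxa against Hmx1 and -0.22 to 0.02 for Wnt6 against Hmx1. These pairs share libraries with each other and with the pooled comparisons. Their TMM factors were those of the summed counts. Chromosome medians were not removed in them, and Pou4f2 lies on chromosome 8, which held a lower share of the counts in the Hoxa libraries. The shares of all genes lower in these pairs include genes of chromosome 8 as well.

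The other POU genes and lists of neurogenic bHLH and LIM homeobox genes were set beside these in the Hoxa comparison. Of 55 peaks at the other POU genes, 6 were higher and 1 lower at the adjusted p, with the background given above. At neurogenic bHLH genes 1 of 67 peaks was higher and 1 lower, and at LIM homeobox genes 3 of 156 were lower. The median log2 fold changes were 0.09, 0.01 and -0.02 in this order, against -0.07 at the POU3 and POU4 peaks. In the Wnt6 and Hmx1 comparisons no peak of these lists passed the adjusted p in edgeR, with unadjusted counts of 5, 2 and 1 in the Wnt6 and 3, 3 and 12 in the Hmx1 comparison. Markers of feeder fibroblasts, the other cells of the culture, had 0 of 49 peaks past the adjusted p in edgeR in each of the 3 comparisons, with 5, 1 and 4 at an unadjusted p under 0.05, and their summed level was 1318 to 1475 CPM in all 7 libraries. Markers of pluripotent stem cells, the cells under study, had 5 of 44 peaks higher at the adjusted p in the Hoxa comparison, against 4.32% of all peaks. None was lower, against 4.20%. Summed per gene, 3 of 8 of these markers were higher, with no share over all genes taken to set beside this. Their median log2 fold change over peaks was 0.18, and their summed level was 519 to 559 CPM in the Hoxa libraries and 427 to 470 CPM in the others. Pou5f1 is on both this list and that of the other POU genes. In the Wnt6 and Hmx1 comparisons no peak of these markers passed the adjusted p in edgeR, with 5 and 3 at an unadjusted p under 0.05. The part of this shift in the lower levels of Pou4f2 and Pou3f1 was not tested.

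Across the 7 libraries, the gene whose summed level followed each POU gene most closely was found by Pearson's r of log2 CPM over 11196 or 11197 genes of at least 10 CPM. It was Fam241a for Pou3f1 (r = 0.995), Ncdn for Pou3f2 (0.992), Klhl30 for Pou3f3 (0.991), Mafa for Pou4f1 (0.992), Cldn23 for Pou4f2 (0.992) and Epb41l4b for Pou4f3 (0.989). Cldn23 lies on chromosome 8, as does Pou4f2. With 7 libraries and this many genes, the highest r of a gene is a description, and the libraries share deletion and depth.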

How the data were processed

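H3K27me3 Cut&Tag was measured in 7 libraries of mESCs with a deletion. The authors deposited raw counts per peak without normalization in a single table. The submitters' processing notes name Bowtie2, Trimmomatic, SAMtools, Picard, MACS2, deepTools and mm10, with no versions or roles. How peaks were chosen, what was counted (reads or fragments) and whether duplicates were removed is not given in the sources used here. Peaks called in few libraries would be biased towards their strong sites. Peak coordinates are as deposited, and whether starts count from 0 or 1 is not stated. Columns were matched to samples by title. Gene positions, promoters and strands came from RefSeq (GRCm38.p6), which has no exons here.

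Counts were tested in R 4.3.3 with edgeR 4.0.16 (quasi-likelihood, filterByExpr by genotype, TMM factors) over all 74441 tested peaks, and over counts summed within 10 kb of each of 17003 protein-coding genes, with Benjamini-Hochberg adjustment. A peak within 10 kb of several genes counted for each. DESeq2 1.42.0, RLE factors, library totals alone, other filters, other windows, genotype terms, single comparison groups, a replicate block, chromosome medians removed and each library left out were alternatives. Library totals of 6016500 to 36563541 counts limit weak peaks most. PCR duplicates are not independent molecules. The procedure was tested on simulated data with larger changes than those at the POU peaks and no shift of a whole chromosome. Calls there required the minimum fold change, so that it does not bear on results at the adjusted p alone.

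The members and lists were chosen with earlier results of these data known. For each gene the text names its strongest peak, the peak at its start, and the called peaks or, without any, that with the smallest p in each comparison, and the most alike gene.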

Additional observations from a re-analysis of the deposited data

How the results depend on the processing

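Of 1015 alternative values, 905 were taken as kept, 34 lost and 24 gained a call, 29 moved and 23 changed sign. A tested value was kept if its direction and call stayed, and a count, median or ratio if it stayed within a set tolerance. Kept counts at the adjusted p in the Hoxa deletion thus include 4, 5 and 8 peaks in place of 6, and 3 genes in place of 2. The fold changes of Pou4f2 and Pou3f1 in the Hoxa deletion were below 0 in every alternative except chromosome medians removed (Pou4f2, 0.092, and its peaks 1 to 3 by coordinate, 0.29, 0.092 and 0.17, where the alternative subtracts the shift of chromosome 8). Same-numbered libraries had an r of -0.04 to 0.08 between their deviations from the group mean. This r cannot decide on a shared batch, since deviations mirror each other in a group of 2 libraries. Replicate 1 was the shallowest and replicate 2 the deepest library of each deletion. With the replicate block, 3 peaks in place of 6 and 1 gene in place of 2 passed the adjusted p in the Hoxa deletion (Pou3f1, adjusted p = 0.0534). The cause was not tested for the other values that moved. In the Hoxa deletion, the count of peaks past the adjusted p was 3 against Wnt6 alone, 1 with chromosome medians removed and 2 within 2 kb, and the count of called peaks was 6 with no minimum on the fold. Without 1 library each it was 3 to 5, with a median of -0.091 to -0.028, and the count of genes was 2. The median was 0.0058 against Wnt6 alone, and the count of genes was 4 against Hmx1 alone and 1 with chromosome medians removed. Against Wnt6 alone Pou3f2 was 0.025 and Pou4f3 0.0050, and with the scaling of the peak table, an alternative chosen after seeing the data, Pou4f3 was 0.0020. In the Wnt6 deletion, 3 peaks and 2 genes passed against Hoxa alone and 1 gene against Hmx1 alone, where the median was -0.14. Without 1 library each, the median was -0.096 to 0.012, the highest without Wnt6 replicate 2, with 0 peaks and 0 genes. Signs changed against Hoxa alone at Pou3f3 (0.011) and Pou4f1 (0.063), against Hmx1 alone at Pou4f2 (-0.21) and its peak 3 (-0.19), and with chromosome medians removed at Pou4f1 (0.0047), Pou4f2 (-0.21), Pou4f3 (0.0018) and Pou4f2 peak 3 (-0.24). Without single libraries, Pou4f1 ran from -0.035 to 0.022, Pou4f3 from -0.096 to 0.010, Pou4f3 peak 5 from -0.23 to 0.0014 and Pou4f2 peak 3 from -0.023 to 0.19. Without Wnt6 replicate 2 Pou4f1 was 0.014 and Pou4f3 0.010, and Pou4f1 was 0.0085 without Hmx1 replicate 1 and 0.022 without Hmx1 replicate 2. In the Hmx1 deletion, 2 peaks and 4 genes passed with genotype terms, 5 peaks and 4 genes against Hoxa alone, 1 gene in DESeq2 and 1 gene against Wnt6 alone. Without 1 library each, 0 to 2 peaks and 0 genes passed, with 2 peaks without Wnt6 replicate 1 and 1 without Wnt6 replicate 2, and the median was 0.073 to 0.14. Against Wnt6 alone, Pou3f1 was -0.0019 and its peak 3 -0.047. The summed level of Pou3f2 over that of Pou3f1, the highest over the lowest, was 2.32, and the highest over the lowest was 1.77 per kb of peak, 1.97 within 2 kb and 1.89 within 50 kb. Depth limits the weakest peaks: the smallest count of a member peak in a library was 22.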
